A study of Mus musculus with 3 samples.

Results

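The Hopx, Bst1 and Krt80 macrophages were 1688 cells of the 21148 that passed the filters in 3 single-cell libraries of mouse ectopic masses. They were chosen by the UMIs of 4 genes. A cell counted as a gated macrophage with at least 500 UMIs, at least 300 genes, at most 15% mitochondrial UMIs, under 1% of UMIs from Col1a1, Col1a2 and Col3a1, a UMI of Csf1r or Adgre1, and no UMI of Cd3e or Cd79a. It was a member when at least 2 of Hopx, Bst1, Krt80 and Kazald1 had a UMI and fewer than 2 of Msx3, Pdcd1lg2, Tmem26 and Rnase2a did. There were 864 members among 3143 gated macrophages of the antibody library, 407 among 3261 of the IgG library and 417 among 6010 of the Matrigel library. Since these UMIs chose the cells, the levels of the 4 genes and the sizes of the groups are descriptions.

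All masses were grown in CD1 mice, an outbred strain, and taken 5 days after implantation. The antibody group had Matrigel implants, a gel of basement membrane proteins, loaded with recombinant human BMP2, and its mice received a systemic neutralizing antibody to activin A. The IgG group had the same BMP2 implants in mice given pre-immune control IgG, and the Matrigel group had the gel alone. IgG is not named for the Matrigel group, and between it and the IgG group the parts of BMP2 and of IgG cannot be told apart. Each group had 1 library, the sources used here do not say how many animals a library holds, and all values therefore compare libraries.

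Macrophages of injured tissue come partly from cells that settled there earlier and partly from blood monocytes that enter and mature. Monocyte-derived cells are known for genes such as Fn1, S100a4 and Ccr2, while settled macrophages are known for scavenger receptors such as Mrc1, Cd163 and Lyve1. BMP2 signals through SMAD1/5 and drives cartilage and bone formation, and activin A is a ligand of the TGF-beta family that signals through SMAD2/3.

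The 4 genes of the rule have unlike roles. Hopx (mm10, chr5:77086988-77115121, minus strand) encodes a small homeodomain protein that does not bind DNA itself and works as a transcriptional cofactor. Bst1 (chr5:43818885-43843986, plus strand) encodes CD157, a surface enzyme that uses NAD. Krt80 (chr15:101347444-101370162, minus strand) encodes a type II keratin, and Kazald1 (chr19:45075241-45079289, plus strand) a secreted protein with a Kazal-type inhibitor domain. Lair1 (chr7:4003402-4063204, minus strand), an inhibitory receptor for collagen, and Clec4d (chr6:123262111-123275265, plus strand), a C-type lectin of myeloid cells, were further markers that the rule did not use. All 6 loci are protein-coding in GENCODE vM21.

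Promoter sequence is shown for 2 genes that chose the cells, for a marker and for F11r, a gene whose level in members differed between the libraries. Capitals mark GAGGAA, the core that the myeloid factor PU.1 recognises, on either strand, and TGANTCA, a motif of AP-1 factors. The windows are the 250 bases before the annotated start, from RefSeq on GRCm38.p6, each written 5′ to 3′ on the strand of its gene. They lie at chr5:77115124-77115373 on the minus strand for Hopx, chr19:45074991-45075240 on the plus strand for Kazald1, chr7:4063205-4063454 on the minus strand for Lair1 and chr1:171437311-171437560 on the plus strand for F11r.
Hopx: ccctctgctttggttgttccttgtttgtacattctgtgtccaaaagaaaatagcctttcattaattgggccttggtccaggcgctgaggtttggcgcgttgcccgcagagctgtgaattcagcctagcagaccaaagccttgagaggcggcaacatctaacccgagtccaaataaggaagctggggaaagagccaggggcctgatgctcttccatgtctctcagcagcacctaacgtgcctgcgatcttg
Kazald1: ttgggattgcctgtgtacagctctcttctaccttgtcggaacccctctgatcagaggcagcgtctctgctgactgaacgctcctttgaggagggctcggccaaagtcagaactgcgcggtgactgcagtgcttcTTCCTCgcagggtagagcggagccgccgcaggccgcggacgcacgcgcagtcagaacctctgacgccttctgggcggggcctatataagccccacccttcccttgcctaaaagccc
Lair1: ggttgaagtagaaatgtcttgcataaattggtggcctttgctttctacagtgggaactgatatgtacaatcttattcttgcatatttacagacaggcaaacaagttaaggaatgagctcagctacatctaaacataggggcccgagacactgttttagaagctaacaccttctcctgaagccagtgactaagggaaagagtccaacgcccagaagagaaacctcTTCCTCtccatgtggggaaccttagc
F11r: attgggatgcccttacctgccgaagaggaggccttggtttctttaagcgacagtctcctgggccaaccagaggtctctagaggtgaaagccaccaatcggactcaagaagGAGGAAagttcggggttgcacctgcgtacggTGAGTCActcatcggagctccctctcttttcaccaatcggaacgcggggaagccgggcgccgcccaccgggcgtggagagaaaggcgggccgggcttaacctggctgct
The Kazald1, Lair1 and F11r windows each held 1 GAGGAA match, 116, 26 and 140 bases before the start, and the F11r window 1 TGANTCA match 109 bases before the start. The Hopx window held neither, nor did that of its other annotated start. The window of the other annotated start of Kazald1, not printed here, held neither motif. GAGGAA was found in 23.3% and TGANTCA in 6.75% of all 32851 windows of this length, no match of one motif overlapped the other here, and a match describes the letters only. Of the 6 genes 4 had a window, and Bst1 and Krt80 had none.

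The libraries held 38163880, 46317250 and 44252421 UMIs over 6113, 6065 and 9249 barcodes in the antibody, IgG and Matrigel groups. Members had medians of 5438, 4420 and 4639 UMIs, against 4558, 3606 and 3002 UMIs in the other gated macrophages, so members were the deeper cells. Pairs of libraries shared 7 to 19 barcodes, and 1 barcode was a member in both the antibody and the IgG library. At the automatic threshold Scrublet marked 2 to 4 cells per library as doublets, which is too few to be usable. Removing the cells with the highest scores instead would take 49, 22 and 45 members. These were 5.67%, 5.41% and 10.8% of members, against 5.09%, 4.91% and 7.21% of the other gated macrophages. Levels are CPM, the UMIs of a gene summed over the cells of a group and scaled to a common total. The 95% intervals beside ratios and shares cover no error but that of counting.

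Members carried macrophage genes, at fewer markers per cell than the other gated macrophages. Of 10 macrophage markers, antibody, IgG and Matrigel members had a UMI of 6, 6 and 5 at the median, against 8, 7 and 8 in the other gated macrophages. Lyz2, lysozyme, was at 15353 CPM in antibody members, 13767 CPM in IgG members and 15509 CPM in Matrigel members, and 99.8%, 99.5% and 99.8% of members had a UMI of it. Csf1r, which the gate used, was at 532, 630.5 and 651 CPM in the members of these libraries. C1qa, the complement subunit of mature macrophages, stood at 1229 CPM in antibody members, 947 CPM in IgG members and 1004 CPM in Matrigel members, below the 2714, 2789.96 and 3410.2 CPM of the other gated macrophages. A UMI of 6 dendritic genes (Flt3, Zbtb46, Xcr1, Clec9a, Siglech and Ccr7) was found in 2.20%, 3.69% and 1.20% of members. In the Matrigel library 1 member of 38255 UMIs held 306 UMIs of 7 epithelial genes. In the IgG library 2 members held at least 3 such UMIs and only 1 Lyz2 UMI between them.

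The markers Lair1 and Clec4d were present in members of both BMP2 libraries and low in those of the Matrigel library. Lair1 was at 163 CPM in antibody members, 154 CPM in IgG members and 21.6 CPM in Matrigel members, against 70.3, 75.2 and 15.5 CPM in the other gated macrophages of the same libraries. It was 2.32-fold higher (2.11 to 2.55) in antibody members and 2.05-fold higher (1.80 to 2.32) in IgG members, while the ratio was 1.39 (1.002 to 1.90) in Matrigel members. Clec4d was at 269 CPM in antibody members, 216 CPM in IgG members and 39.97 CPM in Matrigel members, against 170.00, 81.9 and 17.4 CPM in the others, and reached 2-fold among measured genes in the IgG library only. Matrigel members are therefore called here by the genes of the rule, not by these markers. At full depth 52.4%, 44.2% and 9.11% of members had a Lair1 UMI. After each cell was thinned to 1000 UMIs, which left out 1, 4 and 4 shallower members, 17.5%, 15.9% and 3.15% did, against 0.317%, 0.066% and 0.096% of collagen-high cells, whose median depth before thinning was 19314, 17125 and 8907 UMIs. Thinned shares with Lair1 in the other gated macrophages were 8.28%, 7.95% and 1.92%.

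Hopx was the most often detected gene of the rule. It was at 499 CPM in antibody members, 316 CPM in IgG members and 299.98 CPM in Matrigel members, with 2790, 691 and 653 UMIs. Bst1 was at 168 CPM in antibody members, 202 CPM in IgG members and 89.1 CPM in Matrigel members. Krt80 was at 158 CPM in antibody members, 185 CPM in IgG members and 214 CPM in Matrigel members. Kazald1 was at 116 CPM in antibody members, 129 CPM in IgG members and 32.2 CPM in Matrigel members, the last from 70 UMIs. Matrigel members were mainly cells with Hopx and Krt80, a pair that made up 52.0% of them, against 17.4% of antibody members and 16.2% of IgG members. Hopx and Bst1 without the others were the commonest pair in antibody members, at 207 cells, and in IgG members, at 93 cells, against 59 Matrigel members. All 4 genes were detected in 96 antibody, 38 IgG and 1 Matrigel members. Just outside the rule, with exactly 1 of the 4 genes, stood 742 antibody, 730 IgG and 1406 Matrigel cells with medians of 4825, 3870 and 3738 UMIs. Just inside it, with exactly 2, stood 504, 254 and 359 cells with medians of 5194, 4398 and 4588 UMIs.

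Members made up the largest share of gated macrophages in the antibody library. The shares were 27.5% (25.9 to 29.1) for the antibody, 12.5% (11.4 to 13.7) for the IgG and 6.94% (6.31 to 7.61) for the Matrigel library. These are exact Clopper-Pearson intervals for counting error, and they do not measure the spread between libraries of a group. Of all cells that passed, members were 14.5%, 6.83% and 4.52%. With 3 or more of the 4 genes required, the shares were 11.5%, 4.69% and 0.965%. With every gated macrophage thinned to 1000 UMIs before the rule, which left out 82, 116 and 242 shallower cells, they were 6.04% (5.23 to 6.95), 2.93% (2.36 to 3.58) and 0.936% (0.704 to 1.22). The order of the libraries was the same at full and equal depth. A Hopx UMI was found in 15.3%, 6.68% and 6.62% of thinned gated macrophages, with overlapping intervals for the IgG and Matrigel libraries, and a Kazald1 UMI in 3.92%, 2.32% and 0.295%. Bst1 was found in 6.63%, 6.30% and 2.22%, with overlapping intervals for the antibody and IgG libraries. Krt80 was found in 6.57%, 4.52% and 4.20%, with overlapping intervals for the IgG and Matrigel libraries. Hopx UMIs were found in 0.475%, 0.33% and 0.384% of collagen-high cells thinned in the same way, and in 9.37% and 16.3% of Cd3e-positive cells of the antibody and IgG libraries. With no replicate library, the spread between animals cannot be set beside these shares.

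**Figure D1:**
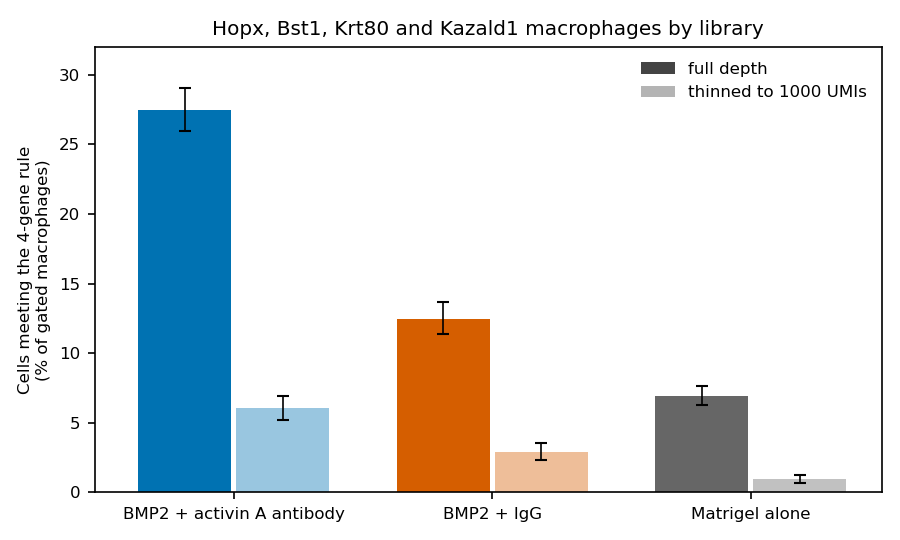
Share of gated macrophages (%) that met the 4-gene rule in each library, at full depth (dark bars) and with every cell thinned to 1000 UMIs (pale bars). Error bars are exact 95% intervals for counting error, and the antibody library is highest in both settings, at 27.5% and 6.04%.

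Levels of genes outside the rule differed with the number of rule genes a cell showed. In gated macrophages with 0, 1, 2, 3 and 4 of the genes (and fewer than 2 of the Msx3 set), Fn1, fibronectin, was at 857, 2429, 4365, 6639 and 8579 CPM in the antibody library. The same steps gave 1051, 2848, 5015, 7703 and 10188 CPM in the IgG library, and those with 0 to 3 genes gave 1259.8, 3912, 6023 and 8946 CPM in the Matrigel library. Fn1 was thus higher at each step in all 3 libraries, including the step from 0 to 1 that lies outside the rule. Apoe, the lipid carrier apolipoprotein E, took the opposite course, with 13084, 7642, 2301, 1284 and 829.6 CPM in the antibody library. It gave 11230.4, 7774, 3442, 2198 and 710.4 CPM in the IgG library and 17811, 8339, 2892 and 1749 CPM in the Matrigel library. Cells with more of the genes were also deeper, at medians of 3869, 4825, 5194, 5672 and 6022 UMIs in the antibody library. The part of depth in these steps was not tested.

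**Figure D2:**
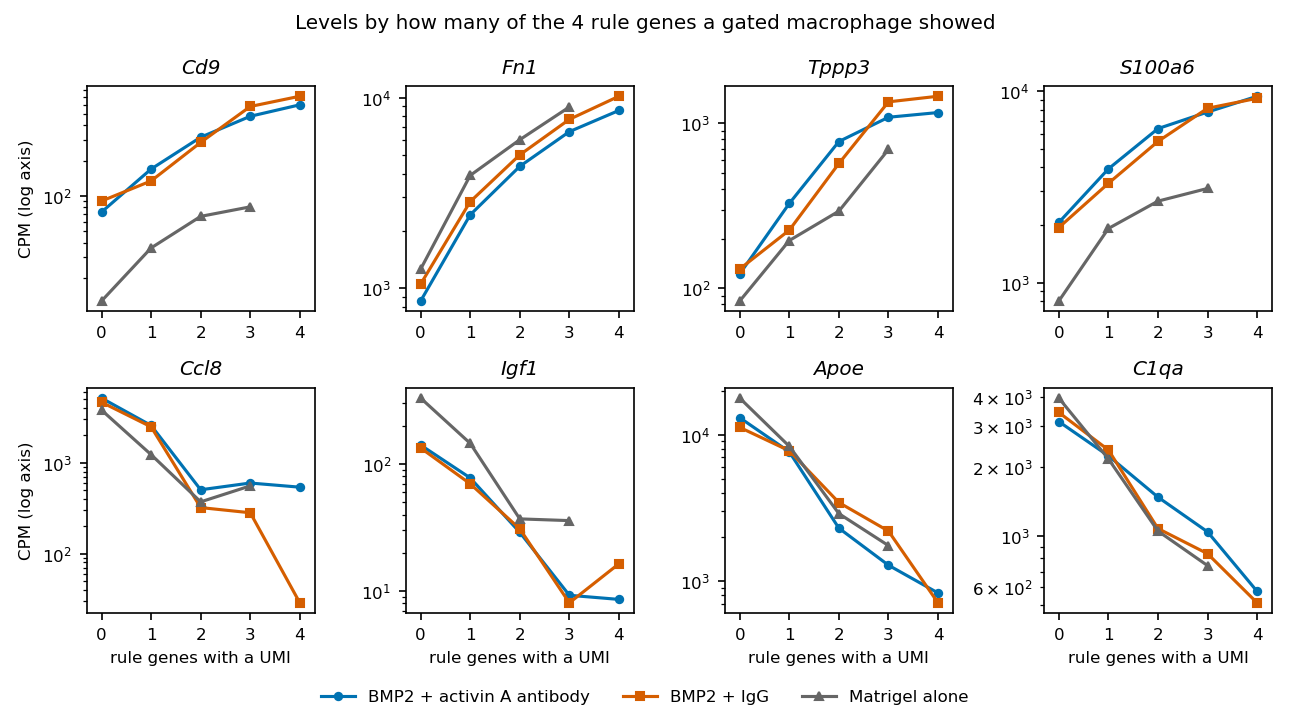
Level (CPM, log axis) of 8 genes in gated macrophages grouped by how many of Hopx, Bst1, Krt80 and Kazald1 had a UMI, for each library. Cd9, Fn1, Tppp3 and S100a6 climb with the number of genes and Ccl8, Igf1, Apoe and C1qa decline over most steps. The 1 Matrigel cell with all 4 genes is not drawn, so the Matrigel line ends at 3.

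Set against the other gated macrophages of the same library, members had more transcripts of Crip2, Cd9, Fn1 and S100a6 and fewer of Ccl8, Igf1, Selenop and Apoe in all 3 libraries. A gene counted as higher or lower when the CPM ratio was 2 or more either way with an interval that excluded 1, among genes with at least 50 CPM in the higher sum and 20 UMIs over both. In the antibody library 99 genes were higher (3.07% of 3221) and 106 lower (3.29%), in the IgG library 120 higher (3.43% of 3500) and 134 lower (3.83%), and in the Matrigel library 90 higher (2.67% of 3377) and 178 lower (5.27%). In all 3 libraries 29 genes were higher (0.998% of 2905) and 50 lower (1.72%). Cells are not replicates, so no p-value is given.

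Among surface genes of the higher group, Cd9, a tetraspanin of cell contacts (mm10, chr6:125460266-125494791, minus strand), was at 401 CPM in antibody members, 415 CPM in IgG members and 68.9 CPM in Matrigel members, against 94.2, 92.04 and 19.8 CPM in the other gated macrophages. It was 4.25-fold higher (3.96 to 4.57), 4.51-fold higher (4.13 to 4.92) and 3.48-fold higher (2.86 to 4.22), and was higher in members of every library although its level in the Matrigel library was the lowest. The Matrigel member with 306 epithelial UMIs held 31 of the 150 Cd9 UMIs there, and without cells with 3 or more epithelial UMIs the ratio was 2.81. With thinning before the rule it was 2.17. Of Matrigel members 16.1% had a Cd9 UMI, and 10 cells held 50.7% of these UMIs. Collagen-high cells had Cd9 at 270, 149 and 137 CPM in the same order, above members in the Matrigel library only. Lsr, a lipoprotein receptor of epithelial tricellular contacts, was at 135, 161 and 104 CPM in the same order, against 32.7, 44.6 and 37.2 CPM. With 3 or more rule genes required its Matrigel ratio was 1.83, under the 2-fold mark. Cd24a, a heavily glycosylated surface protein, was at 54.3, 81.3 and 116 CPM, against 19.7, 26.2 and 26.1 CPM. Thinning before the rule left its IgG ratio at 1.58. Cd36, a scavenger receptor for oxidised lipids, was at 329, 127 and 132 CPM, against 103, 53.4 and 54.99 CPM, and Ltb4r1, the receptor of the attractant leukotriene B4, at 335, 354 and 248 CPM, against 127, 129 and 77.00 CPM.

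Other higher genes have roles in the cytoskeleton and in signalling. Crip2, a LIM domain protein, stood first by the ratio nearest to 1 over the 3 libraries, at 77.2 CPM in antibody members, 104 CPM in IgG members and 53.3 CPM in Matrigel members, against 10.9, 15.03 and 10.1 CPM in the others. It was 7.06-fold higher (5.82 to 8.62), 6.90-fold higher (5.66 to 8.42) and 5.26-fold higher (4.14 to 6.65). Of its 116 Matrigel UMIs 36 came from the member with epithelial UMIs, and without cells with 3 or more such UMIs the ratio was 3.69. With thinning before the rule its ratios were 4.67 in the antibody and 2.35 in the Matrigel library. Of Matrigel members 13.2% had a Crip2 UMI, and 10 cells held 56.9% of these UMIs. Collagen-high cells had Crip2 at 223, 102 and 128 CPM, above members in the antibody and Matrigel libraries. Tppp3, a tubulin polymerization factor, was at 919, 889 and 362 CPM, against 194, 163 and 117 CPM. Pdlim1, an actin-associated PDZ and LIM domain protein, was at 148, 182 and 123 CPM, against 39.3, 45.3 and 44.3 CPM. Ezr, ezrin, which ties the membrane to actin, was 3.05-fold, 2.84-fold and 2.72-fold higher. Lsp1, an actin-binding protein of leukocytes, was 2.88-fold, 2.56-fold and 2.71-fold higher, and Fgr, a Src-family kinase, 2.75-fold, 2.45-fold and 2.67-fold. Rgcc, a regulator of the cell cycle, was 4.13-fold, 3.35-fold and 4.43-fold higher. Ratios of Ezr, Lsp1 and Fgr all lay between 2.45 and 3.05.

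Fn1 (mm10, chr1:71585520-71653200, minus strand) was at 5591 CPM in antibody members, 6349 CPM in IgG members and 6500.3 CPM in Matrigel members, against 1447, 1664 and 2068 CPM in the others, and was 3.86-fold higher (3.79 to 3.94), 3.82-fold higher (3.73 to 3.90) and 3.14-fold higher (3.08 to 3.20). A UMI of Fn1 was found in 95.6%, 95.6% and 93.3% of members at full depth and in 87.1%, 88.6% and 84.7% after thinning, against 6.79% and 15.4% of Cd3e-positive cells in the antibody and IgG libraries. Collagen-high cells express Fn1 too, with a UMI in 98.4% to 98.7% of them. After thinning 44.1%, 47.2% and 38.5% of the other gated macrophages had an Fn1 UMI. Ecm1, a secreted matrix protein, was at 1057, 660.2 and 527 CPM, against 267, 158 and 181 CPM. S100a6, a calcium-binding protein, was at 7202, 6649 and 2735 CPM, against 2849, 2626 and 1144 CPM, with narrow intervals around ratios of 2.53-fold, 2.53-fold and 2.39-fold. Collagen-high cells had S100a6 at 7271, 3557 and 6694 CPM, above members in the antibody and Matrigel libraries.

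**Figure D3:**
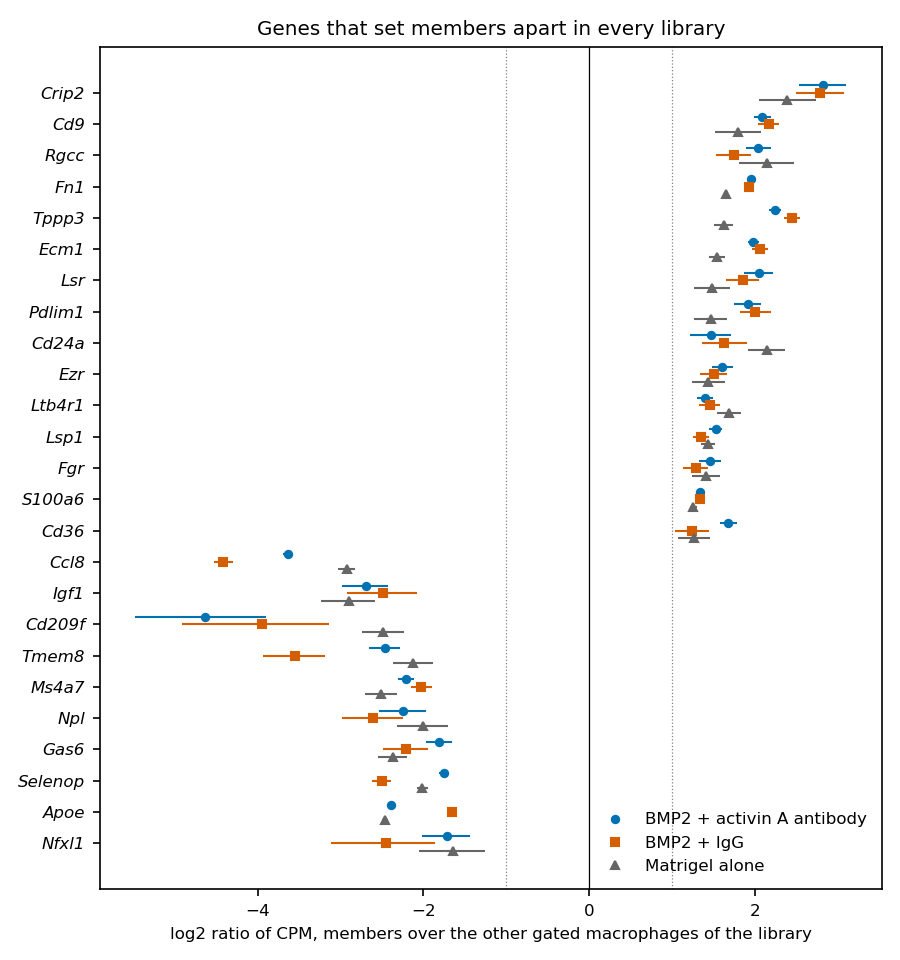
Ratio of members to the other gated macrophages (log2 of the CPM ratio) for the 15 genes named as higher and the 10 named as lower, with 1 marker per library and lines for the 95% counting interval. Dotted lines mark 2-fold; every marker of the 15 lies right of the upper line and every marker of the 10 left of the lower line.

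Of the 10 named genes lower in members, 5 encode secreted proteins. Ccl8, a chemokine that draws monocytes and T cells, was at 537 CPM in antibody members, 277 CPM in IgG members and 399 CPM in Matrigel members, against 6684, 5899 and 3029.7 CPM in the other gated macrophages. It was 12.4-fold lower (12.00 to 12.9), 21.3-fold lower (19.6 to 23.1) and 7.60-fold lower (7.11 to 8.13), and 10 cells held 58.6%, 87.6% and 71.5% of the member UMIs. With the highest doublet scores removed, its ratios were 0.0184 in the IgG library and 0.0598 in the Matrigel library, further below the others. The rule barred cells with 2 or more of the Msx3 set from the members, so they count among the other gated macrophages. Of the Ccl8 UMIs of those macrophages, the Msx3 group described below held 42289 of 84339 (antibody), 35285 of 73391 (IgG) and 481 of 57686 (Matrigel). The rule thus built in part of the Ccl8 difference, and ratios without that group were not computed. Igf1, insulin-like growth factor 1, was at 20.4, 22.8 and 36.8 CPM, against 132, 128 and 274 CPM. Apoe was at 1804 CPM in antibody members, 2787 CPM in IgG members and 2709.9 CPM in Matrigel members, against 9421, 8731 and 14906 CPM. Selenop, which carries selenium, was at 578, 271 and 914 CPM, against 1951, 1538 and 3684 CPM, and Gas6, a ligand of TAM receptors in clearance of dead cells, at 71.3, 55.3 and 128 CPM, against 249.7, 255 and 661 CPM. Members of each library were below the other gated macrophages for these 5 genes.

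Surface and other genes were lower as well. Cd209f, a C-type lectin with closely similar gene copies among which counting may divide reads, was at 2.68, 5.48 and 60.2 CPM, against 66.6, 84.8 and 336 CPM. Ms4a7, a membrane protein of macrophages, was at 169, 246 and 100.1 CPM, against 781, 999.7 and 569 CPM. Npl, an enzyme of sialic acid breakdown, was 4.73-fold, 6.08-fold and 4.01-fold lower, Tmem8 5.52-fold, 11.7-fold and 4.35-fold lower, and Nfxl1 3.29-fold, 5.46-fold and 3.12-fold lower. For these genes too the rule placed the Msx3 group among the other gated macrophages. In the IgG library it held 2429 of their 4106 Tmem8, 1042 of their 2211 Npl and 168 of their 714 Nfxl1 UMIs.

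Among gene lists, monocyte genes were mostly higher and resident macrophage genes mostly lower in members. Counts are of the measured genes of a list in the antibody, IgG and Matrigel libraries, and the median log2 ratio over all measured genes was -0.03, 0.00 and -0.02. Monocyte genes were 6 higher and 2 lower of 11, 8 higher and 2 lower of 12 and 4 higher and 1 lower of 7, with medians of 1.16, 1.31 and 1.24. The lower ones were Chil3, whose gene family counting may divide, Ms4a4c and Plac8, genes that blood monocytes carry. S100a4, a calcium-binding protein of motile cells, was at 4045, 3947 and 1538 CPM, against 1579, 1451 and 652 CPM, while Ccr2, the receptor that brings monocytes out of marrow, did not reach 2-fold at 529.7, 1013 and 1132 CPM, against 416, 650.1 and 679.99 CPM. Resident macrophage genes were 0 higher and 10 lower of 15, 0 higher and 11 lower of 13 and 0 higher and 16 lower of 17, with medians of -1.08, -2.05 and -1.89. Mrc1, the mannose receptor, was at 996, 832 and 1094 CPM, against 2581, 2508 and 2268 CPM, and F13a1, a coagulation factor subunit, at 687, 509 and 1346 CPM, against 1074, 834 and 2319.8 CPM, short of 2-fold in each library.

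Chemokines were 0 higher and 7 lower of 14, 0 higher and 9 lower of 14 and 1 higher and 5 lower of 10. Ccl6 and Ccl9, chemokines with the most UMIs in members, were at 3178, 1044 and 3959.9 CPM and 1649, 758 and 1742 CPM, against 2199, 1217 and 2463 CPM and 1369.9, 805 and 1095 CPM, within 2-fold in each library. Interferon-stimulated genes were 1 higher and 0 lower of 8, 0 higher and 6 lower of 11 and 0 higher and 6 lower of 8. Their medians were -0.68, -1.19 and -1.42, below those over all measured genes in each library. Isg15, a ubiquitin-like interferon product, was at 46.1, 54.8 and 22.5 CPM, against 86.6, 174 and 60.8 CPM, and passed 2-fold in the IgG and Matrigel libraries. The difference between libraries was not tested. Complement genes were 0 higher and 4 lower of 11, 0 higher and 5 lower of 11 and 1 higher and 5 lower of 10. C1qb was at 969, 685 and 952 CPM, against 2183, 2214 and 3081 CPM, and Itgam, a subunit of complement receptor 3, at 774, 587 and 504 CPM, against 415, 346 and 363 CPM, short of 2-fold.

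Osteoclast genes were 0 higher and 4 lower of 5, 0 higher and 3 lower of 8 and 0 higher and 0 lower of 3. Acp5, the acid phosphatase of osteoclasts, was at 31.8, 16.9 and 19.3 CPM, against 164, 172 and 24.3 CPM, and Ctsk, cathepsin K, at 17.9, 7.31 and 2.76 CPM, against 158, 142 and 4.78 CPM, below the other gated macrophages in both BMP2 libraries. MHC class II genes were 0 higher and 0 lower of 8, 0 higher and 0 lower of 8 and 1 higher and 0 lower of 8, with Cd74, the invariant chain, at 9593, 13104 and 15473 CPM, against 8102, 10691 and 10036 CPM. Fc receptor and integrin genes were 2 higher and 0 lower of 13, 2 higher and 2 lower of 13 and 2 higher and 2 lower of 11. Itgb2, the beta chain of leukocyte integrins, was at 811, 678 and 627 CPM, against 322, 273 and 294 CPM, higher in each library.

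Lipid handling genes were divided, at 2 higher and 3 lower of 15, 3 higher and 2 lower of 16 and 2 higher and 4 lower of 15. Fabp5, a fatty acid carrier, was at 301, 348 and 184 CPM, against 1858, 1816 and 259 CPM, and Trem2, a lipid-sensing receptor, at 229.9, 175 and 41.8 CPM, against 256, 184 and 113 CPM. Lysosome and cathepsin genes were 0 higher and 2 lower of 18, 0 higher and 3 lower of 19 and 0 higher and 4 lower of 19, with Lgmn, the protease legumain, at 811, 518 and 525 CPM, against 2365, 1899 and 1678 CPM. Inhibitory and paired receptors were 3 higher and 0 lower of 13, 2 higher and 0 lower of 15 and 0 higher and 1 lower of 12, and C-type lectins 1 higher and 4 lower of 14, 2 higher and 4 lower of 15 and 0 higher and 5 lower of 12. Genes of alternative activation were 0 higher and 5 lower of 11, 0 higher and 4 lower of 12 and 0 higher and 3 lower of 8. Arg1, arginase 1, was at 2025, 1656 and 91.4 CPM, against 1551, 1069.7 and 51.2 CPM, within 2-fold in each library. SMAD target genes were 1 higher and 0 lower of 9, 2 higher and 0 lower of 8 and 2 higher and 0 lower of 6, with Hes1, a transcriptional repressor, at 143, 119 and 35.4 CPM, against 28.8, 26.9 and 23.4 CPM. This list pools targets of SMAD2/3 and of SMAD1/5.

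Of the remaining lists, matrix enzymes were 2 higher and 3 lower of 10, 2 higher and 1 lower of 10 and 4 higher and 1 lower of 7, with Plaur, the urokinase receptor, at 229.7, 185 and 169.5 CPM, against 99.6, 88.4 and 54.4 CPM. Growth factors were 1 higher and 2 lower of 9, 1 higher and 2 lower of 9 and 1 higher and 2 lower of 6. Hypoxia and glycolysis genes were 0 higher and 0 lower of 18, 1 higher and 0 lower of 19 and 0 higher and 0 lower of 17, inflammatory cytokines 0 higher and 0 lower of 12, 0 higher and 1 lower of 9 and 1 higher and 0 lower of 8, and immediate early genes of dissociation 1 higher and 0 lower of 21, 1 higher and 0 lower of 19 and 0 higher and 0 lower of 21. NAD metabolism genes other than Bst1 were 0 higher and 0 lower of 5, 0 higher and 0 lower of 5 and 0 higher and 1 lower of 5. Proliferation genes were 0 higher and 0 lower of 3, 0 higher and 0 lower of 4 and 0 higher and 0 lower of 8. Alveolar macrophage genes, a cell type known for other sites, were 0 higher and 3 lower of 6, 1 higher and 2 lower of 7 and 0 higher and 2 lower of 5, and of body cavity macrophage genes 2, 1 and 1 were measured. Gata6, the defining factor of large cavity macrophages, was at 0, 0.914 and 0.919 CPM. Keratin and epithelial genes other than Krt80 were measured in the IgG library only, where Cdh1 was higher.

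The macrophages chosen by the mirrored rule, with at least 2 of Msx3, Pdcd1lg2, Tmem26 and Rnase2a and fewer than 2 of the member genes, formed another subset of the gate. They numbered 306 antibody, 390 IgG and 7 Matrigel cells, and 21, 25 and 0 gated macrophages met both conditions. Members against this group gave 258 genes higher (7.57% of 3410) and 271 lower (7.95%) in the antibody library, and 337 higher (9.22% of 3655) and 296 lower (8.1%) in the IgG library. Lyz2 was at 15353 CPM in antibody members, against 2264 CPM in the Msx3 group, and at 13767 CPM in IgG members, against 2250.1 CPM. Ccl8 was at 537 and 277 CPM in members, against 17710.5 and 14592 CPM. Cd163, the haemoglobin scavenger receptor, was at 183 and 31.1 CPM, against 1078 and 1097 CPM. Lyz2 was thus 6.78-fold and 6.12-fold higher in members, while Ccl8 and Cd163 were lower in members of both libraries. Arg1 lay within 2-fold, at 2025 and 1656 CPM, against 2427 and 2422 CPM.

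Antibody and IgG libraries were compared to ask how neutralizing activin A is reflected in members of BMP2 implants. Among members, chemokine genes and genes of resident macrophages were higher in the antibody library, while Pmepa1 and a set of surface genes were lower. Of 3314 measured genes 56 were higher (1.69%) and 58 lower (1.75%) in members. The other gated macrophages had 22 higher (0.659% of 3339) and 16 lower (0.479%). Members hold fewer UMIs than the other cells, so these counts do not say which cells differed more between the libraries. The median log2 ratio over measured genes was -0.11, and each ratio is to be read relative to it.

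Pmepa1, which TGF-beta signals induce and which then restrains that pathway (mm10, chr2:173224458-173276533, minus strand), was at 48.1 CPM in antibody members, 239 CPM in IgG members and 13.8 CPM in Matrigel members. Antibody members were 4.98-fold lower (4.29 to 5.79) than IgG members, and the other gated macrophages of these libraries had 63.7 against 149 CPM. A Pmepa1 UMI was found in 20.9%, 52.3% and 5.04% of members, and after thinning in 5.68%, 18.6% and 0.726%. Of the other gated macrophages, 5.91%, 12.5% and 2.48% had a Pmepa1 UMI after thinning, so antibody members were close to the other cells of their library. Collagen-high cells express Pmepa1, with a UMI in 31.5%, 40.4% and 38.1% after thinning, and Cd3e-positive cells had one in 5.15% and 7.69% in the antibody and IgG libraries. Cx3cr1, the fractalkine receptor of monocytes, was at 79.2 CPM in antibody members, 279.6 CPM in IgG members and 52.8 CPM in Matrigel members, and was 3.53-fold lower (3.12 to 3.999) in antibody than in IgG members. Lilr4b, an immunoglobulin-like receptor, was at 56.8 CPM in antibody members, 267 CPM in IgG members and 205 CPM in Matrigel members, 4.70-fold lower (4.09 to 5.41) in antibody than in IgG members. IgG members were the highest of the 3 libraries for each of these genes.

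Junction and signalling genes were also highest in IgG members. F11r, junctional adhesion molecule A (mm10, chr1:171437535-171464603, plus strand), whose promoter window is printed above, was at 28.2 CPM in antibody members, 104 CPM in IgG members and 4.59 CPM in Matrigel members, and was 3.69-fold lower (2.998 to 4.55). Cdh1, E-cadherin, was at 29.9 CPM in antibody members, 103 CPM in IgG members and 4.13 CPM in Matrigel members, and was 3.46-fold lower (2.82 to 4.25). Flt1, a VEGF receptor, was at 32.9 CPM in antibody members, 114 CPM in IgG members and 1.38 CPM in Matrigel members, and was 3.46-fold lower (2.85 to 4.21). Each of these stood highest in IgG members, lower in antibody members and at 10 UMIs or fewer in Matrigel members. The other gated macrophages had the same order of libraries. Their levels were 5.47, 23.1 and 0.945 CPM for F11r, 30.1, 48.4 and 0.368 CPM for Cdh1 and 20.6, 35.3 and 0.630 CPM for Flt1. Antibody members were thus level with the other cells of their library in Cdh1. Fxyd7, a regulator of the sodium pump, was at 31.8 CPM in antibody members, 111 CPM in IgG members and 4.59 CPM in Matrigel members, and was 3.47-fold lower (2.85 to 4.24). AA467197 was at 17.5 CPM in antibody members, 102 CPM in IgG members and 0.459 CPM in Matrigel members, 5.82-fold lower (4.57 to 7.45), but 10 cells held 71.4% of its UMIs in antibody members and 85.7% in IgG members. A UMI of F11r was found in 13.7%, 33.9% and 1.92% of members, and after thinning in 4.40%, 12.9% and 0.242%, against at most 0.396% of collagen-high cells in any library. Thinned shares with F11r in the other gated macrophages were 0.955%, 3.06% and 0.056%.

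Genes higher in antibody members included scavenger receptors and chemokines. Cd163 was at 183 CPM in antibody members, 31.1 CPM in IgG members and 49.2 CPM in Matrigel members, 5.90-fold higher (4.61 to 7.65) in antibody than in IgG members. Lyve1, a hyaluronan receptor, was at 163 CPM in antibody members, 36.1 CPM in IgG members and 69.8 CPM in Matrigel members, 4.52-fold higher (3.59 to 5.77). In the other gated macrophages Cd163 was at 542, 323 and 131 CPM and Lyve1 at 103, 39.7 and 155 CPM, so antibody members were below their library's other cells in Cd163 and above them in Lyve1. Pf4, platelet factor 4, was at 1120.3 CPM in antibody members, 259.96 CPM in IgG members and 502 CPM in Matrigel members, 4.31-fold higher (3.95 to 4.70). Ccl7 was at 329 CPM in antibody members, 70.4 CPM in IgG members and 64.8 CPM in Matrigel members, 4.67-fold higher (3.96 to 5.54), and Ccl2, the chief attractant of monocytes, at 715 CPM in antibody members, 171 CPM in IgG members and 184 CPM in Matrigel members, 4.17-fold higher (3.75 to 4.65). Cxcl2, an attractant of neutrophils, was at 340.01 CPM in antibody members, 74.5 CPM in IgG members and 538 CPM in Matrigel members, 4.57-fold higher (3.89 to 5.39), and thus lowest in IgG members. Ifitm6, an interferon-inducible membrane protein, was at 136 CPM in antibody members, 31.1 CPM in IgG members and 192 CPM in Matrigel members, and Wfdc17, a secreted peptide of macrophages, at 4079 CPM in antibody members, 1097 CPM in IgG members and 2807 CPM in Matrigel members, 4.38-fold higher (3.42 to 5.71) and 3.72-fold higher (3.57 to 3.88) in antibody than in IgG members.

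Some of these genes lay in few cells. In IgG members 10 cells held 52.9% of Cd163, 58.4% of Ccl7, 66.9% of Cxcl2 and 68.4% of Lyve1 UMIs, against 34.5%, 32.6%, 26.03% and 37.7% in antibody members. The ratio of antibody to IgG in the other gated macrophages was 1.68 (1.61 to 1.75) for Cd163, 1.35 (1.30 to 1.40) for Ccl7, 4.31 (3.95 to 4.70) for Cxcl2 and 0.428 (0.394 to 0.465) for Pmepa1. It ran in the same direction as in members for these 4 genes, and its difference from the member ratio was not tested.

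**Figure D4:**
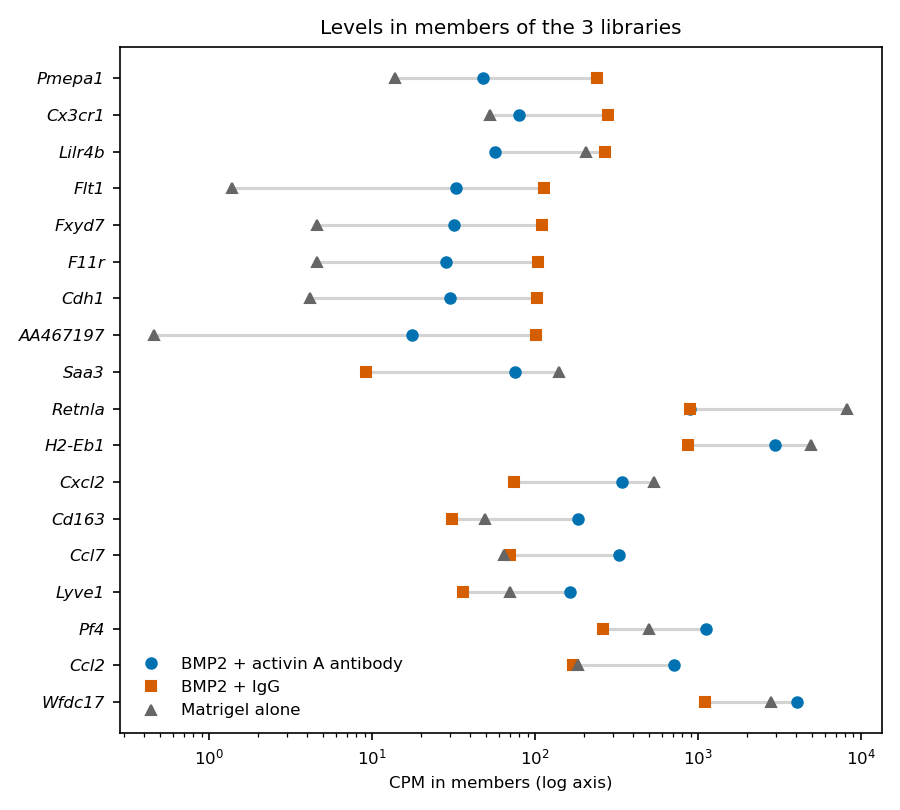
Level in members (CPM, log axis) of 18 genes in the antibody, IgG and Matrigel libraries, 1 marker per library. For the upper 8 genes the IgG marker lies furthest right, and for Saa3, H2-Eb1, Cxcl2, Cd163, Lyve1, Pf4, Ccl2 and Wfdc17 it lies furthest left.

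By list, chemokines were 7 higher and 0 lower of 11 in antibody against IgG members (median 1.61), and resident macrophage genes 6 higher and 1 lower of 13 (median 0.57). Of the chemokines with the most UMIs, Ccl6 was at 3178, 1044 and 3959.9 CPM and Ccl9 at 1649, 758 and 1742 CPM, both above 2-fold in antibody against IgG members. SMAD target genes were 0 higher and 1 lower of 9 (median -0.46), the lower gene being Pmepa1. Tgfbi, a matrix protein that TGF-beta induces, was at 609 CPM in antibody members, 1071 CPM in IgG members and 509 CPM in Matrigel members, within 2-fold, and Skil and Smad7, feedback genes of the pathway, were at 74.7, 112 and 36.8 CPM and 31.5, 46.1 and 11.9 CPM. Monocyte genes were 2 higher and 1 lower of 12, interferon-stimulated genes 1 higher and 0 lower of 7, lipid handling genes 1 higher and 2 lower of 16 and MHC class II genes 1 higher and 1 lower of 8. Gbp2, a guanylate-binding protein that interferon induces, was the interferon gene that was higher, at 533, 189.6 and 59.7 CPM. Among the other gated macrophages, chemokines were 4 higher and 1 lower of 15 (median 0.45) and resident macrophage genes 3 higher and 0 lower of 15 (median 0.24). SMAD target genes were 0 higher and 1 lower of 8 there (median -0.17).

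IgG and Matrigel libraries were compared to ask how BMP2, given with control IgG, is reflected in members. Members of the IgG library had more Arg1, Pmepa1 and SMAD target transcripts and fewer of Retnla, H2-Eb1 and Saa3. Of 3420 measured genes 179 were higher (5.23%) and 88 lower (2.57%) in members. The other gated macrophages had 121 higher (3.47% of 3484) and 72 lower (2.07%). Here too members hold fewer UMIs, so the counts do not say which cells differed more between the libraries. The IgG library stands in this and in the preceding comparison, so a gene that is high or low in that library alone appears in both with opposite signs.

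The highest ratios in IgG members came from few cells or low Matrigel counts. Hbb-bs, Hba-a1 and Hbb-bt, haemoglobin genes of red blood cells with near-identical copies, were at 1408, 724 and 331 CPM in IgG members, against 5, 5 and 2 UMIs in Matrigel members. In IgG members 10 cells held 99.2%, 99.7% and 100% of these UMIs, and without cells with 5 or more haemoglobin UMIs the ratios were 6.62, 2.41 and 3.01. Ccl17, a chemokine of dendritic cells, was at 100.1 CPM in IgG members and had 0 UMIs in Matrigel members, at least 72.6-fold higher against a floor of 3 counts over those members, with 98.6% of its UMIs in 10 cells. AA467197 had 1 Matrigel UMI and Flt1 had 3, with ratios of 222 (39.4 to 8799) and 82.5 (27.9 to 403). Cdh1 was 24.97-fold higher (12.9 to 55.3) and Fxyd7 24.1-fold higher (12.9 to 50.8). Without cells with 3 or more epithelial UMIs the Cdh1 ratio was 68.6, and the Matrigel members held 9 Cdh1 UMIs in all.

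Other genes of this direction were chosen after their values were seen. Pmepa1 was 17.4-fold higher (12.02 to 26.01) in IgG than in Matrigel members. Arg1 was 18.1-fold higher (15.7 to 21.00) and stayed high in antibody members, at 2025 CPM in antibody members, 1656 CPM in IgG members and 91.4 CPM in Matrigel members. An Arg1 UMI was found in 73.1%, 64.6% and 13.9% of members, and after thinning in 54.8%, 51.4% and 4.60%, against 1.27%, 0.594% and 0.24% of collagen-high cells. Of the other gated macrophages, 44.3%, 31.3% and 3.94% had an Arg1 UMI after thinning, the same order of libraries. Spp1, osteopontin, was at 75.6 CPM in antibody members, 183 CPM in IgG members and 10.6 CPM in Matrigel members, and Timp1, an inhibitor of matrix proteases, at 77.6 CPM in antibody members, 206 CPM in IgG members and 10.6 CPM in Matrigel members. Cav1, a coat protein of membrane pits, was at 36.3 CPM in antibody members, 119 CPM in IgG members and 5.51 CPM in Matrigel members, and Itgal, an integrin chain, at 43.1 CPM in antibody members, 103 CPM in IgG members and 8.73 CPM in Matrigel members. Spp1, Timp1, Cav1 and Itgal were highest in IgG members, whereas Arg1 was highest in antibody members. Collagen-high cells of the 3 libraries had Spp1 at 1011, 416 and 91.4 CPM, Timp1 at 2328, 1349 and 678 CPM and Cav1 at 296, 153 and 198 CPM. Members stood under 10% of the level of another cell class for Spp1 in the antibody library, Timp1 in the antibody and Matrigel libraries and Cav1 and Itgal in the Matrigel library. IgG members also had the highest mesenchymal sum, 347 CPM, and its part in these differences was not tested.

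Genes lower in IgG members were led by Saa3, an acute-phase protein, at 75.3 CPM in antibody members, 9.14 CPM in IgG members and 140.1 CPM in Matrigel members, 15.3-fold lower (9.75 to 25.5). Retnla, a secreted marker of alternative activation, was at 892 CPM in antibody members, 893 CPM in IgG members and 8256 CPM in Matrigel members, 9.24-fold lower (8.82 to 9.69). Retnla was thus low in the members of both BMP2 libraries, while Saa3 was lowest in IgG members. The other gated macrophages of the antibody, IgG and Matrigel libraries had Retnla at 1014, 827 and 6598 CPM. Their Saa3 was at 85.4, 31.99 and 78.6 CPM, so both genes were lower with IgG than in Matrigel there too. Of the member UMIs, 10 cells held 60.9%, 87.6% and 19.05% for Retnla and 59.4%, 100% and 71.8% for Saa3. Cxcl2 was 7.22-fold lower (6.13 to 8.56) and Ifitm6 6.18-fold lower (4.77 to 8.11) in IgG than in Matrigel members. Ednrb, an endothelin receptor, was at 56.7 CPM in antibody members, 17.8 CPM in IgG members and 107 CPM in Matrigel members, Lrg1, a secreted glycoprotein, at 55.8 CPM in antibody members, 24.7 CPM in IgG members and 131 CPM in Matrigel members, and Nr4a1, a nuclear receptor of the immediate response, at 88.3 CPM in antibody members, 30.2 CPM in IgG members and 131 CPM in Matrigel members. These were 6.03-fold, 5.31-fold and 4.34-fold lower in IgG than in Matrigel members, with antibody members between.

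H2-Eb1, a beta chain of MHC class II, stood apart from its partners. It was at 2974 CPM in antibody members, 864 CPM in IgG members and 4938 CPM in Matrigel members, 5.71-fold lower (5.44 to 6.002) in IgG than in Matrigel members and 3.44-fold higher (3.28 to 3.61) in antibody than in IgG members. H2-Aa was at 3183 CPM in antibody members, 3814 CPM in IgG members and 6314 CPM in Matrigel members, H2-Ab1 at 3618 CPM in antibody members, 5702 CPM in IgG members and 7006 CPM in Matrigel members and Cd74 at 9593 CPM in antibody members, 13104 CPM in IgG members and 15473 CPM in Matrigel members, all within 2-fold between the libraries compared. With thinning before the rule the H2-Eb1 ratio of IgG to Matrigel members was 0.0574. In the other gated macrophages H2-Eb1 was at 2414, 1047 and 3539 CPM and H2-Ab1 at 3008, 4654 and 4435 CPM, the same order of libraries for H2-Eb1. CD1 mice are outbred and class II genes have similar copies and many alleles, so the part of allele-dependent counting was not tested. An H2-Eb1 UMI was found in 72.3%, 38.8% and 86.6% of members, and after thinning in 55.6%, 19.4% and 81.1%, against 3.98% and 1.92% of Cd3e-positive cells of the antibody and IgG libraries. After thinning 46.1%, 26.7% and 58.3% of the other gated macrophages had one, so IgG members were below the other cells of their library. Cd79a-positive cells of the antibody library had one in 88.9%.

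**Figure D5:**
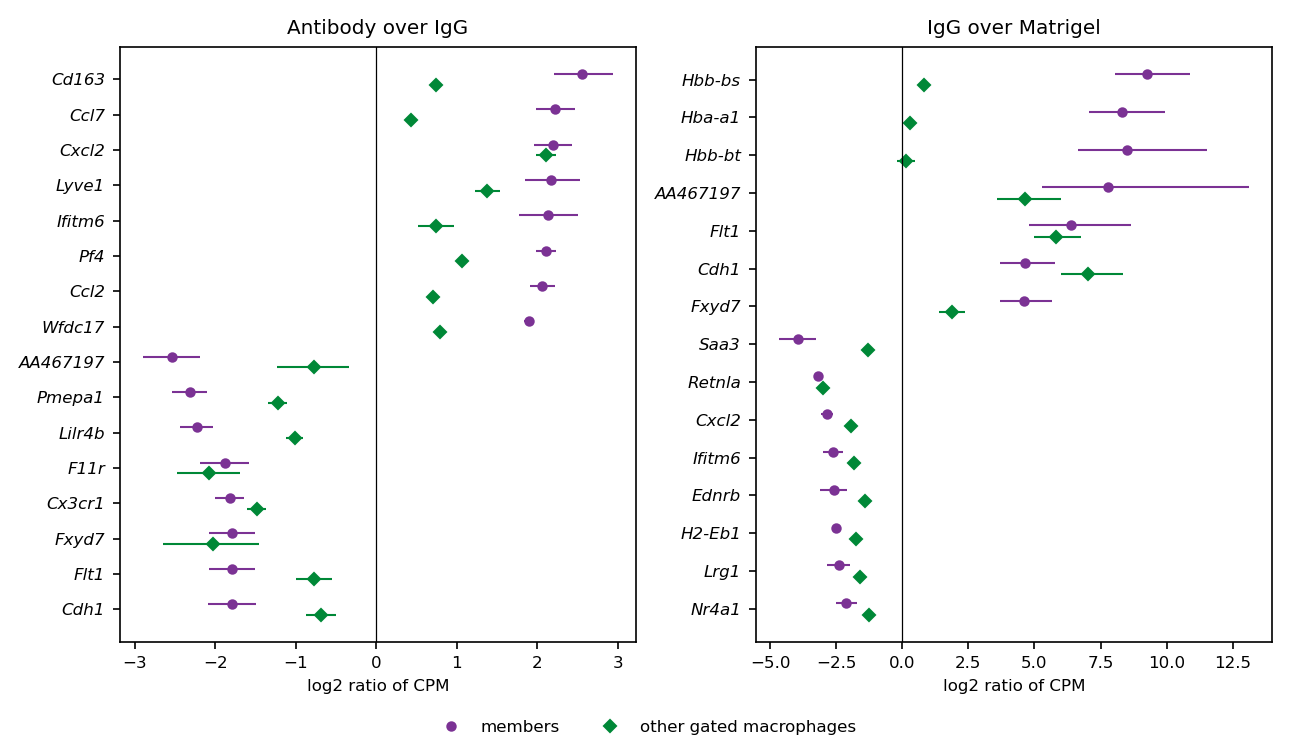
Ratios between libraries (log2 of the CPM ratio) in members and in the other gated macrophages, for the genes named in each comparison, with lines for the 95% counting interval. Ccl17, at 0 UMIs in Matrigel members, is not drawn; the haemoglobin genes are far right in members of the IgG against Matrigel panel and near 0 to 1 in the other cells.

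By list, IgG against Matrigel members gave SMAD target genes 4 higher and 0 lower of 9 (median 0.75, beside 0.09 over all measured genes). Besides Pmepa1 these were Tgfbi, Hes1 and Skil, and the list does not part SMAD2/3 from SMAD1/5 targets. Interferon-stimulated genes were 5 higher and 0 lower of 7 (median 1.27), with Bst2, tetherin, at 199, 187 and 89.6 CPM. Monocyte genes were 6 higher and 1 lower of 12 (median 1.002), with S100a6 and S100a4 among the higher ones. Lipid handling genes were 6 higher and 0 lower of 16, with Lgals3, galectin 3, at 1760.5, 1815 and 794 CPM and Msr1, a scavenger receptor, at 367, 346 and 108 CPM. Hypoxia and glycolysis genes were 4 higher and 0 lower of 19, with Eno1, enolase, at 397, 294 and 115 CPM. Resident macrophage genes were 1 higher and 5 lower of 13, chemokines 2 higher and 4 lower of 11, immediate early genes 0 higher and 3 lower of 21 and proliferation genes 0 higher and 2 lower of 8. Genes of alternative activation were divided, 5 higher and 3 lower of 12, with Tgm2, transglutaminase 2, at 112, 169.5 and 27.6 CPM and Clec10a, a C-type lectin, at 79.4, 97.8 and 313 CPM. Among the other gated macrophages, SMAD target genes were 3 higher and 0 lower of 7 (median 0.95) and interferon-stimulated genes 6 higher and 0 lower of 11 (median 1.05). Hypoxia and glycolysis genes were 4 higher and 0 lower of 19 there, lipid handling genes 4 higher and 1 lower of 16 and monocyte genes 4 higher and 1 lower of 9. Chemokines went the other way from members, at 6 higher and 2 lower of 14.

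Markers of other cell types were present at low summed levels. The 9 mesenchymal genes summed to 60.2, 347 and 170.4 CPM in antibody, IgG and Matrigel members, against 84.2, 329 and 260 CPM in the other gated macrophages. The 12 dendritic genes summed to 193, 271 and 295 CPM, against 185, 298 and 176 CPM, the 12 neutrophil genes to 59.7, 56.2 and 66.2 CPM, and the 11 T and NK cell genes to 43.3, 36.6 and 19.3 CPM. IgG members thus had the highest mesenchymal sum of the 3 and also the highest level of Pmepa1, which collagen-high cells express too. Matrigel members had a higher mesenchymal sum than antibody members, at 170.4 against 60.2 CPM, but a lower Pmepa1 level. The part of free mesenchymal RNA in the Pmepa1 difference was not tested.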

How the data were processed

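Per the labels' protocols, dissociated masses gave 10x Genomics 3' v3 libraries. Cell Ranger 3.0.2 and mm10 are credited to the submitters' processing notes. The deposited values were whole UMI counts per gene and barcode, per the file headers. How barcodes were called as cells is not stated. The filters and rule for members stand in the report. Counts were summed per library and group in Python 3.11.15 with numpy 2.4.6 and scipy 1.17.1, scaled to CPM, and compared as ratios with exact conditional binomial intervals; shares have exact Clopper-Pearson intervals. All cover counting error only. A list's median log2 ratio has 1 UMI added to each sum. With 1 library per group there was no test. The ratio step was checked on simulated counts. Doublets were kept; Scrublet (scanpy 1.11.5) served as an alternative.

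Members, 32 gene lists and comparisons were chosen with earlier results of these data known. Named genes were the 15 highest and 10 lowest by the ratio nearest to 1 over the libraries, and the 8 highest and 8 lowest ratios between libraries at 100 CPM or more. Left out were genes of the rule and gate, mitochondrial and ribosomal genes, Gm and Rik models and markers linked to sex. So were genes under 10% of their level in collagen-high, Cd3e-positive or Cd79a-positive cells, in any library for members against the rest and in the higher library for comparisons between libraries. List examples were those with most UMIs or, beyond these, genes chosen after their values were seen. Loci are from GENCODE vM21 and promoters from RefSeq on GRCm38.p6.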

Additional observations from a re-analysis of the deposited data

Results flagged for a closer look

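Ccl24, a chemokine that attracts eosinophils, ran in opposite directions in members and in the other gated macrophages. IgG members had 115 CPM and Matrigel members 286 CPM, a ratio of 0.401. The other gated macrophages had 1352 CPM with IgG and 213 CPM in Matrigel alone, a ratio of 6.34. The cells of the Msx3 group held 5126 CPM in the IgG library, and 10 cells held 59.8% of the UMIs in IgG members and 34.5% in Matrigel members. Hbb-bt, a haemoglobin gene, was at 161 CPM in antibody members and 331 CPM in IgG members, a ratio of 0.485, and at 100.5 and 10.4 CPM in the other gated macrophages of the same libraries, a ratio of 9.69. In members 10 cells held 98.9% of the antibody and 100% of the IgG UMIs. The difference between members and other cells was not tested for either gene.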

How the results depend on the processing

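Counts and shares kept within 1.5 times, or within their interval, with at most 10% mitochondrial UMIs, with the highest doublet scores removed, with median-ratio scaling (which does not bear on shares), and without haemoglobin-rich, dendritic-gene or epithelial-gene cells (the last 3 chosen after seeing the data). With 3 or more rule genes, the antibody, IgG and Matrigel shares were 11.5%, 4.69% and 0.965%. Genes higher in members than in other cells were then 181 (IgG) and 145 (Matrigel), those higher and lower in IgG than Matrigel members 287 and 159, and those lower in antibody than IgG members 94. With thinning before the rule, the shares were 6.04%, 2.93% and 0.936%, genes higher in members 235 (IgG) and 156 (Matrigel), genes lower 322 (Matrigel), between IgG and Matrigel members 387 higher and 160 lower, and between antibody and IgG members 91 higher and 218 lower. Fewer cells and UMIs enter under both settings. With no CPM filter, members gave 329 higher and 668 lower genes (antibody), 390 and 572 (IgG), 433 and 753 (Matrigel), and 100 and 177 in all 3 libraries, while members of IgG against Matrigel gave 577 and 367 and of antibody against IgG 212 and 449. Of 106 ratios of named genes with a value, those under thinning included the only reversal, Hbb-bt in IgG against Matrigel members at 0.61, and the cause was not tested. Under the other settings every ratio with a value kept its direction. Sizes were less stable: 24 of 100 ratios moved by over 1.5 times with 3 or more rule genes, 31 of 98 with thinning and 10 of 106 with the highest doublet scores removed. In IgG against Matrigel members, thinning gave H2-Eb1 a ratio of 0.0574, Ednrb 0.0254 and Flt1 23.2. No paired analysis was possible because each group had 1 library and no replicate to leave out.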

Other observations

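Ltc4s, which makes leukotriene C4, was named after its values were seen. It was at 432 CPM in antibody members, 117 CPM in IgG members and 204 CPM in Matrigel members, against 106, 39.4 and 169.9 CPM in the other gated macrophages and 5.44 and 4.96 CPM in the antibody and IgG cells of the Msx3 group. Antibody members were 4.07-fold higher (3.80 to 4.35) than the other cells of their library and 3.70-fold higher (3.25 to 4.22) than IgG members. Itgb7, an integrin chain that guides leukocytes to tissues, was at 92.1 CPM in antibody members, 39.3 CPM in IgG members and 32.2 CPM in Matrigel members, and Klf2, a transcription factor of quiescent leukocytes, at 460.3 CPM in antibody members, 272 CPM in IgG members and 312 CPM in Matrigel members, both highest in antibody members. Areg, the growth factor amphiregulin, was at 2.68, 3.20 and 39.97 CPM in antibody, IgG and Matrigel members, and 10 cells held 100% of its Matrigel UMIs. Krt8 and Krt19, simple keratins, were at 0, 0 and 46.9 CPM and 0.536, 0.914 and 34.5 CPM in members, and 1 Matrigel member of 38255 UMIs held 306 of the 311 UMIs of the 7 epithelial genes, Krt8 and Krt19 among them, in Matrigel members.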
